A study of Mus musculus with 12 samples.

Results

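The genes described here carry out or control fatty acid synthesis and desaturation in the mouse. They are 10 genes of the 43278 gene symbols in the table, taken by name: Srebf1, Acaca, Fasn, Elovl6, Elovl5, Scd1, Scd2, Fads2, Fads1 and Acsl3. All 10 had a row in the table, and all 10 passed the filter on low values in every comparison. The 12 RNA libraries, 3 in each of 4 groups, came from thioglycolate-elicited peritoneal macrophages (PMφs) of wild-type C57BL/6J mice aged 8 to 12 weeks. Control PMφs received neither agent. The oxLDL group was cultured for 24 h with 100 µg/ml human medium oxidized LDL, the LPS group received 10 ng/ml ultrapure LPS, and the oxLDL+LPS group received that oxLDL and then that LPS. The LPS exposure time of these libraries is not stated in the sources used here. Thioglycolate, which draws cells into the peritoneal cavity, was injected 4 days before lavage, and adherent cells were used after 18 h in culture. Per the methods, cells of male and female littermates, up to 10 mice, were pooled and divided among the 4 groups. Libraries of the same replicate number deviated together, so they are taken here as cultures of a shared pool, and each library stands for a pool rather than an animal.

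Fatty acid synthesis builds palmitate from acetyl-CoA. Acetyl-CoA carboxylase (Acaca) makes malonyl-CoA and fatty acid synthase (Fasn) condenses it into palmitate. Elongases of the ELOVL family lengthen the chain, SCD enzymes place a double bond at the Δ9 position, and the FADS desaturases act at the Δ6 and Δ5 positions of polyunsaturated chains. SREBP-1, encoded by Srebf1, is the transcription factor best known for driving these genes, and its gene is in turn a target of the oxysterol-sensing nuclear receptor LXR. In macrophages the products serve membrane lipids, lipid droplets and precursors of lipid mediators. Oxidized LDL brings the cell cholesterol and oxidized lipids, and LPS is the bacterial ligand of TLR4.

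The macrophage label was checked first. All 8 macrophage markers were detected, with sums of 245300 to 345826 normalized counts per library, where a normalized count is the deposited value, a read count divided by a factor for its library. Adipocytes also use this pathway heavily, and the 6 adipocyte markers summed to 0 to 9 per library, with Lep at 0 in every library. The 9 mesothelial and fibroblast markers were all detected and differed among the pools. They summed to 15678 to 27531 in libraries of replicate number 1, to 13267 to 15971 in number 2 and to 4443 to 5307 in number 3, most of it from the collagen genes Col1a1 and Col1a2. Il1b, a gene that LPS induces, was at 7 to 20 in the libraries without LPS and at 7630 to 152939 in those with it. Library totals were 17152972 to 17709731 normalized counts without LPS and 22071853 to 26384551 with LPS.

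On GRCm38 (GENCODE vM21) the genes lie on chromosomes 1, 3, 9, 11 and 19. Srebf1 (11:60199089-60222581, minus strand), Acaca (11:84129672-84401651, plus strand) and Fasn (11:120805846-120824547, minus strand) share chromosome 11 at distances of many megabases. Fads2 (19:10062765-10101746, minus strand) and Fads1 (19:10182888-10196877, plus strand) are neighbours, 81.1 kb apart. Scd2 (19:44293674-44306864, plus strand) and Scd1 (19:44394455-44407879, minus strand) lie 87.6 kb apart with Scd4 between them. Elovl6 (3:129532355-129638495), Elovl5 (9:77917364-77984519) and Acsl3 (1:78657825-78707743) are on the plus strand. Scd1 and Scd2 are paralogs, and 145 of the 4888 distinct 50-base stretches of Scd1 transcripts also occur in Scd2, 2.97%, so reads from those stretches could come from either gene. Exons of Acsl3 overlap those of Utp14b on the same strand over 244 bases, 5.60% of the exon length of Acsl3, and Utp14b was at 31 to 118 normalized counts. Exons of Srebf1 overlap those of Rai1 on the other strand over 109 bases, 1.93% of its exon length.

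Promoter windows from RefSeq (GRCm38.p6), 250 bases before to 50 bases after each start site, were available for 7 of the 10 genes, in 9 windows. Scd1, Scd2 and Fads1 had no window. The windows were searched on both strands for 4 motifs. These were CCAAT (the NF-Y box), GGGCGG (the GC box), CACGTG (a form of the E-box) and TCACNCCAC (a form of the sterol response element). None of these motifs can lie inside another. CCAAT was present in 5 of the 9 windows, against 37.4% of the 32851 promoter windows of the table. These 5 belonged to 4 of the 7 genes, Fasn, Acsl3, Elovl5 and Srebf1. GGGCGG was present in 4 windows, against 35.7%, and these belonged to 3 genes, Acsl3, Fads2 and Srebf1. CACGTG was present in 1 window, that of Elovl5, against 7.15%, and TCACNCCAC in none, against 1.24%. The windows of Acaca and Elovl6 held no match to any of the 4 motifs. The Acaca window (11:84195188-84195487) lies inside the gene, whose annotated start is 84129672, so sequence at that annotated start was not searched. The windows of Fasn, Acsl3 and Elovl5 are shown as examples with several matches, picked after the matches had been counted, and do not stand for the other genes; matches on either strand are in capitals, and on the minus strand CCAAT reads ATTGG and GGGCGG reads CCGCCC.
Fasn, chr11:120824498-120824797, strand minus: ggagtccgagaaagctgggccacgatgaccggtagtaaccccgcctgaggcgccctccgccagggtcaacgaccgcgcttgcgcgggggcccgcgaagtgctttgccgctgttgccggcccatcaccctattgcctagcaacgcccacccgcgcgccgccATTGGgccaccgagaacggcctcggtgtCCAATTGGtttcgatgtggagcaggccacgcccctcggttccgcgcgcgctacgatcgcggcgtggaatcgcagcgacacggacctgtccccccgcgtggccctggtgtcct
Acsl3, chr1:78657575-78657874, strand plus: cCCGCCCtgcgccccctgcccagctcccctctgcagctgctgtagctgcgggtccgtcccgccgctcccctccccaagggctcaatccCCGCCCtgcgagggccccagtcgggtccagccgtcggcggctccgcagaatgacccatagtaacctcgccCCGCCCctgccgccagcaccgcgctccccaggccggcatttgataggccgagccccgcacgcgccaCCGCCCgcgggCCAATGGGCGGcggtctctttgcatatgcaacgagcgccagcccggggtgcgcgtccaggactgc
Elovl5, chr9:77917115-77917414, strand plus: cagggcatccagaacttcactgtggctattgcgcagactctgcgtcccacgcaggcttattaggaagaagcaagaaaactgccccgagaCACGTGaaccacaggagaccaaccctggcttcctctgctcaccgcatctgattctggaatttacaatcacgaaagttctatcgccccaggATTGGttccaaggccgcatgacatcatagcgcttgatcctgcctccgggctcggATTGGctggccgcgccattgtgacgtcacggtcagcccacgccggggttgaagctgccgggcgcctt
The Fasn window holds 3 matches to CCAAT, of which a pair overlaps, against 11.7% of all windows with at least 2. The Acsl3 window holds 5 matches to GGGCGG, of which 1 lies directly beside its CCAAT. The Elovl5 window holds 2 matches to CCAAT and the only CACGTG of the 9 windows. A match is a run of letters and not a measured binding site. The lack of a match covers only these exact strings in these windows.

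Levels in control PMφs spanned more than an order of magnitude per length. On the scale of normalized counts per kb of merged exons, Elovl5 had the highest mean level (428, range 419 to 433), followed by Scd2 (378, range 315 to 467) and Fads1 (317, range 296 to 327), and neighbours in this order overlapped. Srebf1 followed at 253 (range 237 to 262). Fasn (89.8) and Scd1 (88.4) overlapped with each other, as did Acaca (49.9) and Acsl3 (49.8), and as did Fads2 (29.2) and Elovl6 (25.9), the lowest. Scd2, known as the SCD form of many tissues outside the liver, was thus above Scd1, the main hepatic form, in every control library. The order of the means was another in the treated groups. Srebf1 had the highest level per kb in LPS (336) and oxLDL+LPS (271) PMφs, and Scd2 ranked below Srebf1 in all 3 other groups. The plot of normalized counts by library shows these levels without division by length.

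**Figure D1:**
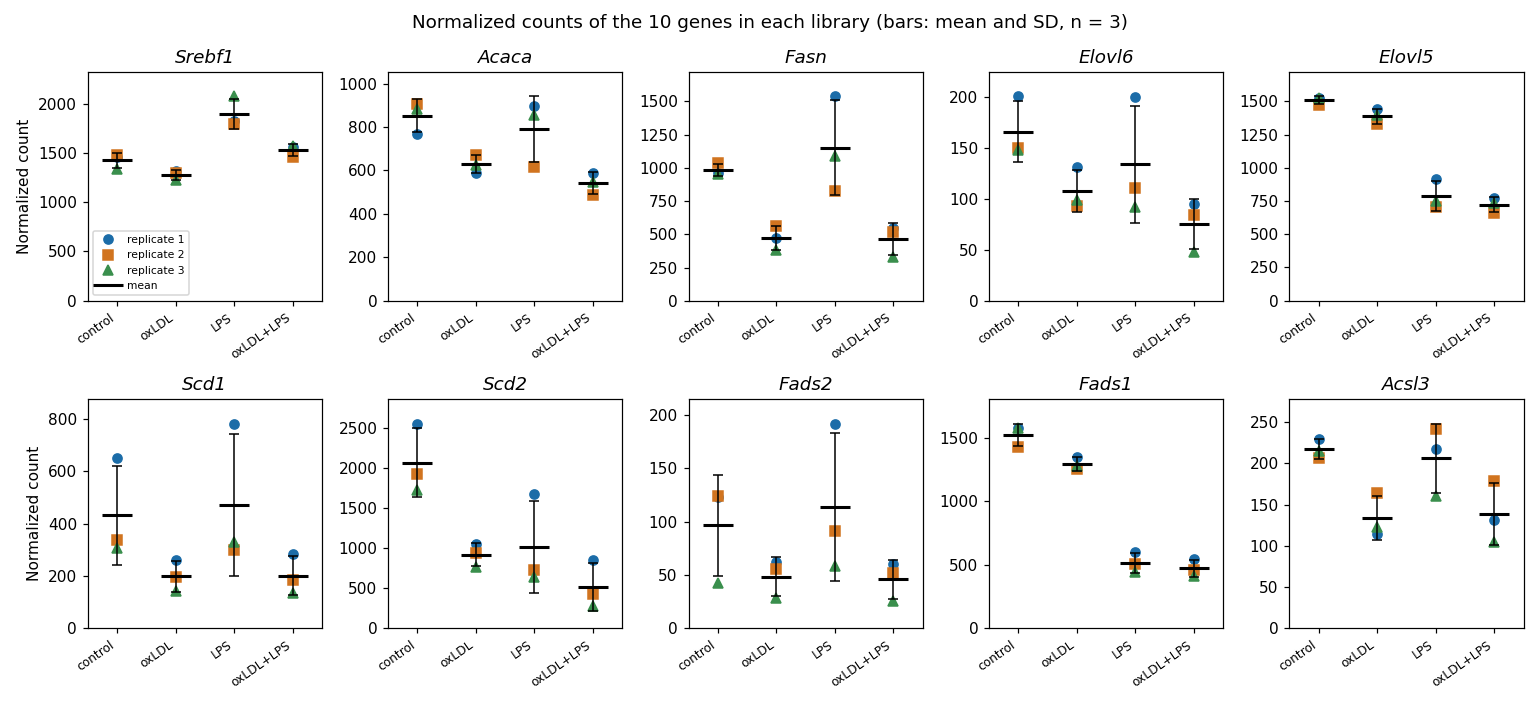
Normalized counts (y axes, each starting at 0) of the 10 genes in the 4 groups (x axes), with a symbol per replicate number, the mean as a thick bar and the SD (n = 3) as whiskers. Fasn, Scd1 and Scd2 lie lower in every oxLDL library than in every control library, and Fads1 and Elovl5 lie lower in every LPS library than in every library without LPS.

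Pools differed more for some genes than for others. The highest library of a group was that of replicate number 1 in all 4 groups for Scd1, Scd2, Elovl6 and Elovl5. The highest and lowest libraries of a group differed by 1.85 to 2.62 times for Scd1, by 1.38 to 3.11 times for Scd2 and by 2.21 to 3.31 times for Fads2. For Srebf1 the same ratio was 1.08 to 1.16. A fit that ignores the pool counts this spread as error, whereas a model that blocks on the replicate number sets it aside.

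The first question was how oxLDL accumulation altered these genes in PMφs without LPS. All 10 genes were lower in the oxLDL library than in the control library of the same number, in all 3 numbers, and for 9 of them, all but Fads2, the groups did not overlap, against 3.91% of the 12751 genes tested. Without a block, limma called 0 of the 10 genes and 0 of all genes (0%) at an adjusted p under 0.1, although 381 genes, 7 of the 10 among them, had an unadjusted p under 0.05. With the replicate number as a block, 8 of the 10 genes were called lower, against 2.92% of all genes tested called lower and 1.80% called higher. The median log2 difference of the 10 genes was −0.67 and that of all genes tested −0.01. In these bulk libraries, fewer cells of a type and less RNA per cell cannot be told apart.

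Scd2, which makes oleate and palmitoleate from saturated acyl-CoA, was at 2551, 1918 and 1721 normalized counts in control libraries 1, 2 and 3 and at 1051, 930 and 760 in the oxLDL libraries. Each oxLDL library held between 41.2% and 48.5% of the level of its control, and the groups did not overlap. The log2 difference was −1.17 (SE 0.17 without a block, adjusted p = 0.250; SE 0.053 with the block, adjusted p = 2.26e-06), and with the block it had the smallest p of all 12751 genes. Scd1, its paralog, was at 650, 339 and 308 in control and at 259, 196 and 140 in oxLDL libraries. The log2 difference of Scd1 was −1.08 (SE 0.099 and adjusted p = 5.44e-04 with the block; adjusted p = 1 without), close to the difference of Scd2.

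Fasn, the synthase itself, was at 959, 1035 and 954 in control and at 472, 564 and 383 in oxLDL libraries, a mean of 983 ± 45.4 (SD, n = 3) against 473 ± 90.5. The oxLDL group stood at 48.1% of the control mean with no overlap. Its log2 difference of −1.07 (95% interval −1.24 to −0.90 with the block) had an adjusted p of 1.31e-04 with the block and of 0.250 without it. Acaca, which supplies malonyl-CoA to Fasn, was at 766, 906 and 883 in control and at 589, 671 and 624 in oxLDL libraries. Its difference was smaller, −0.44 (SE 0.053, adjusted p = 0.00180 with the block; 0.804 without), or 73.7% of the control mean. The ratio of Fasn per kb to Acaca per kb inside a library was 1.69 to 1.95 in control and 0.957 to 1.31 in oxLDL libraries.

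The elongases differed in size. Elovl6, which extends palmitate to stearate, was at 201, 150 and 148 in control and at 132, 93 and 99 in oxLDL libraries (−0.62, SE 0.10, adjusted p = 0.0128 with the block; 1 without). All 3 oxLDL libraries of Elovl6 held 62.0% to 66.9% of their control. Elovl5, which extends polyunsaturated chains, was at 1526, 1474 and 1523 in control and at 1440, 1326 and 1397 in oxLDL libraries. Elovl5 was not called with or without the block (−0.12, 95% interval −0.22 to −0.02 with the block, adjusted p = 0.211).

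Among the front-end desaturases, Fads2, the Δ6 enzyme, was at 123, 124 and 42 in control and at 62, 55 and 28 in oxLDL libraries. The control library of number 3 lay below 2 oxLDL libraries, so the groups overlapped although each oxLDL library was under its own control (−0.90, SE 0.16, adjusted p = 0.0165 with the block; 1 without). The unblocked difference of Fads2 was −1.41 without control number 3 and −0.56 without oxLDL number 3. Fads1, the Δ5 enzyme, was at 1572, 1424 and 1575 in control and at 1350, 1251 and 1274 in oxLDL libraries, a smaller difference of −0.24 (SE 0.047, adjusted p = 0.0239 with the block; 1 without). Acsl3, an acyl-CoA synthetase of the endoplasmic reticulum and lipid droplets, was at 230, 206 and 215 in control and at 114, 164 and 123 in oxLDL libraries (−0.71, SE 0.13, adjusted p = 0.0159 with the block; 0.964 without).

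Srebf1 itself differed little. It was at 1458, 1476 and 1338 in control and at 1320, 1298 and 1223 in oxLDL libraries, each oxLDL library at 87.9% to 91.4% of its control. The log2 difference of −0.15 (95% interval −0.25 to −0.05) missed the threshold with the block (adjusted p = 0.113) and without it. The table sums the transcripts of Srebf1, so the SREBP-1a and SREBP-1c forms were not separated.

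**Figure D2:**
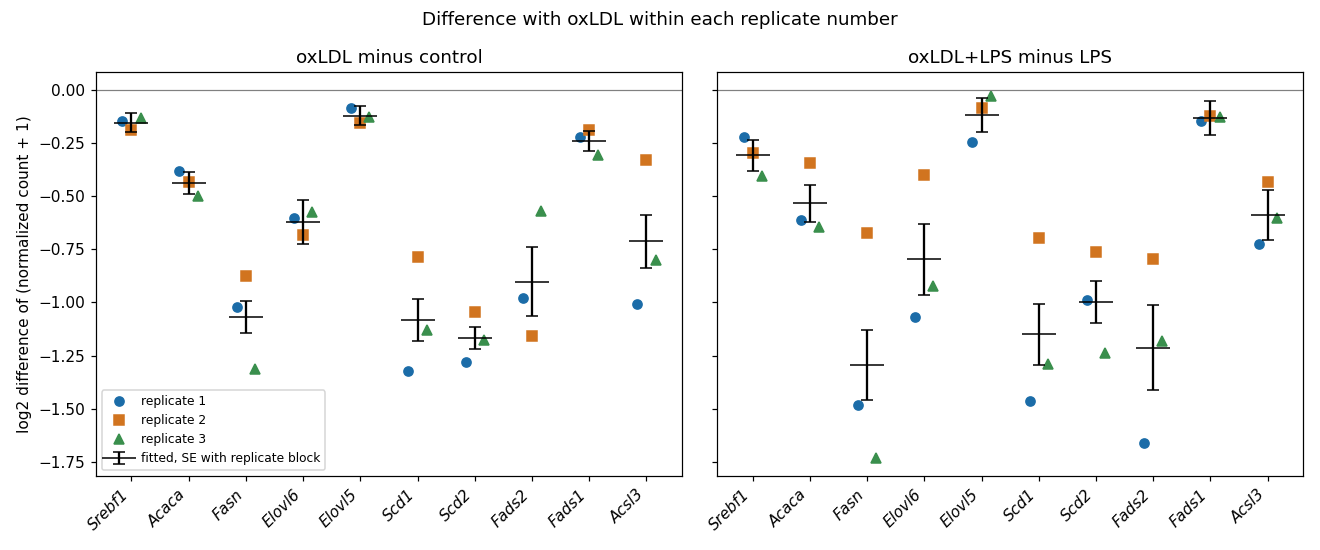
Log2 differences with oxLDL (y axis, on normalized count + 1) for the 10 genes, in PMφs without LPS (left) and with LPS (right). Symbols are differences inside each replicate number, the bar is the fitted difference and the whiskers are its SE with the replicate block. All differences in both panels are below 0, and Elovl5 and Fads1 lie nearest to 0 in the right panel.

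The block counts depended on single pools. Without replicate number 1 the block called 5 of the 10 genes (Acaca, Fasn, Elovl6, Scd1 and Scd2), without number 2 it called 5 (Acaca, Fasn, Scd1, Scd2 and Acsl3), and without number 3 it called 9, all but Elovl5. Over all genes these fits called 124 of 12376, 78 of 12368 and 753 of 12451 lower, so the calls of all genes moved as well. With the block and all 12 libraries in the fit, 1 of the 10 genes, Scd1, was called lower, against 5 of 13482 over all genes. The mesothelial and fibroblast markers summed to 22806, 15971 and 5052 in control libraries 1, 2 and 3 and to 18543, 13267 and 5307 in oxLDL libraries. In number 3, where this sum was 5052 in control and 5307 in oxLDL, Scd2 stood at 44.2%, Fasn at 40.1% and Scd1 at 45.5% of control. In numbers 1 and 2, where the sum was lower with oxLDL, Scd2 stood at 41.2% and 48.5% of control. Fasn stood there at 49.2% and 54.5%, and Scd1 at 39.8% and 57.8%. Fads2 stood at 50.4% and 44.4% of control in numbers 1 and 2, and at 66.7% in number 3. The part of these marker sums in the differences was not tested.

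The next question was whether oxLDL had a like effect in PMφs given LPS. All 10 genes were again lower in oxLDL+LPS than in LPS libraries of the same number in all 3 numbers, and the groups did not overlap for 4 of them, Srebf1, Acaca, Fasn and Scd1, against 6.39% of the 12786 genes tested. Without a block limma called 0 of the 10 and 0 of all genes (0%), while 890 genes had an unadjusted p under 0.05. With the block, 8 of the 10 were called lower, all but Elovl5 and Fads1, against 8.74% of all genes called lower and 4.42% called higher. The median log2 difference was −0.69 for the 10 genes and −0.01 for all genes tested. Leaving out pools changed this count: the block called 3 genes without number 1 (Fasn, Scd1 and Scd2), 8 without number 2 and 0 without number 3. Over all genes these fits called 59 of 12266, 1846 of 12334 and 0 of 12452 lower. Single libraries also moved the unblocked log2 differences by over 1.5 times. Without LPS number 1 that of Scd2 was −0.57, that of Scd1 −0.71, that of Fads2 −0.75 and that of Elovl6 −0.47. Without oxLDL+LPS number 3 that of Scd2 was −0.62 and that of Elovl6 −0.50.

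Fasn was at 1538, 829 and 1089 in LPS libraries and at 550, 520 and 327 in oxLDL+LPS libraries. The LPS libraries were spread widely and yet all lay above the oxLDL+LPS libraries (−1.30, SE 0.17 and adjusted p = 0.00614 with the block; SE 0.28 and adjusted p = 0.698 without). Scd1 was at 783, 299 and 331 in LPS and at 283, 184 and 135 in oxLDL+LPS libraries (−1.15, SE 0.14, adjusted p = 0.00542 with the block; 0.698 without). For Scd1 the groups were separate by a narrow gap, between 283 and 299. Scd2 was at 1675, 724 and 641 in LPS and at 843, 426 and 271 in oxLDL+LPS libraries, where number 1 of oxLDL+LPS lay above numbers 2 and 3 of LPS. Inside each number Scd2 held 42.3% to 58.8% of its LPS level (−0.998, SE 0.099, adjusted p = 0.00347 with the block; 0.733 without).

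Acaca was at 897, 618 and 856 in LPS and at 587, 487 and 548 in oxLDL+LPS libraries (−0.53, SE 0.088, adjusted p = 0.0116 with the block; 0.698 without). Fads2 was at 192, 91 and 58 in LPS and at 60, 52 and 25 in oxLDL+LPS libraries (−1.21, SE 0.20, adjusted p = 0.0116 with the block; 0.705 without). Only the lowest LPS library of Fads2 overlapped the other group. Elovl6 was at 200, 111 and 92 against 95, 84 and 48 (−0.80, SE 0.17, adjusted p = 0.0260 with the block; 0.714 without). Acsl3 was at 217, 242 and 160 against 131, 179 and 105 (−0.59, SE 0.12, adjusted p = 0.0226 with the block; 0.705 without). Srebf1, the regulator, was at 1821, 1788 and 2073 in LPS and at 1564, 1456 and 1566 in oxLDL+LPS libraries, and here it was called lower with the block (−0.31, SE 0.073, adjusted p = 0.0399; 0.698 without).

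Elovl5 and Fads1 were the exceptions. Elovl5 was at 916, 702 and 747 in LPS and at 774, 662 and 734 in oxLDL+LPS libraries (−0.12, 95% interval −0.30 to 0.06 with the block, adjusted p = 0.413). Fads1 was at 597, 501 and 444 against 540, 460 and 407 (−0.13, 95% interval −0.31 to 0.05 with the block, adjusted p = 0.363). The groups overlapped for both genes. Leaving out a library or number moved these small differences between −0.20 and −0.0046 for Elovl5 and between −0.24 and −0.018 for Fads1. The mesothelial and fibroblast markers summed to 27531, 13307 and 5175 in LPS libraries 1, 2 and 3 and to 15678, 14569 and 4443 in oxLDL+LPS libraries, and the part of the fall in number 1 in these results was not tested. In number 2 the sum was higher with oxLDL, and there Fasn stood at 62.7%, Scd1 at 61.5% and Scd2 at 58.8% of its LPS level. In numbers 1 and 3 the sum was lower with oxLDL. Fasn stood there at 35.8% and 30.0%, Scd1 at 36.1% and 40.8%, and Scd2 at 50.3% and 42.3%.

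**Figure D3:**
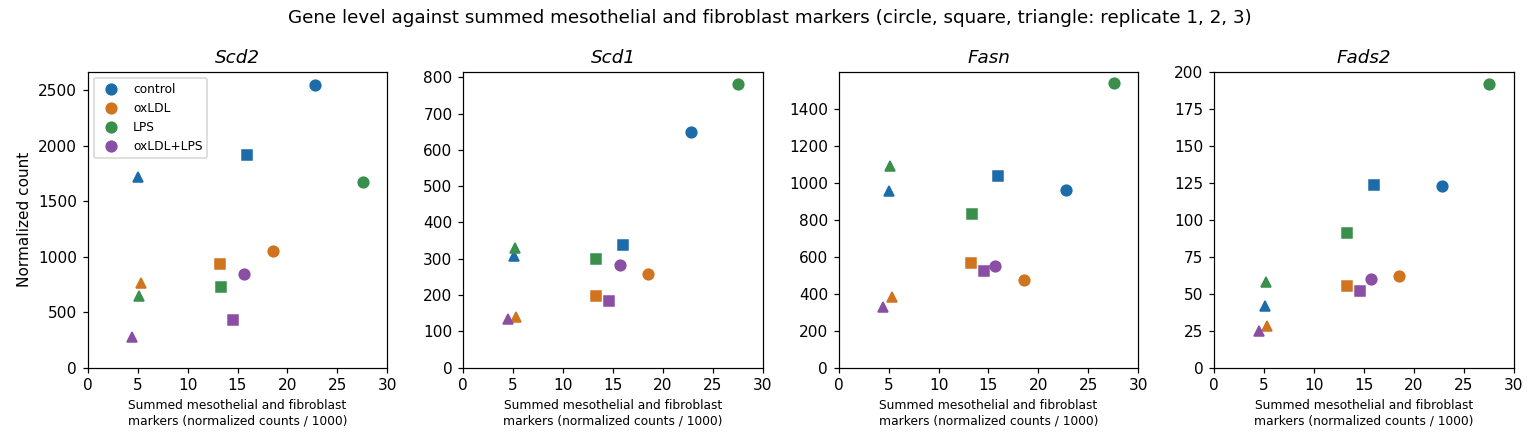
Normalized counts of Scd2, Scd1, Fasn and Fads2 (y axes) against the summed 9 mesothelial and fibroblast markers (x axes, normalized counts divided by 1000) in the 12 libraries, coloured by group, with circles, squares and triangles for replicate numbers 1, 2 and 3. The library of LPS number 1 is farthest right and highest for Scd1, Fasn and Fads2, and among the triangles, whose marker sums are 4443 to 5307, the oxLDL and oxLDL+LPS libraries lie below the libraries without oxLDL at the same LPS state.

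Whether the oxLDL effect differed with LPS was tested as the interaction of both agents on all 12 libraries. limma called 0 of the 10 genes and 0 of the 13482 genes tested (0%), with 418 genes at an unadjusted p under 0.05. A block nested in the LPS state called 147 genes (1.09%) and none of the 10. The 10 differences of differences ranged from −0.31 (Fads2, 95% interval −0.92 to 0.29 with the nested block) to 0.17 (Scd2, −0.10 to 0.44). For Fasn the interval with the nested block was −0.73 to 0.28, for Scd1 −0.52 to 0.38 and for Srebf1 −0.33 to 0.02. Every interval of the 10 genes with the nested block included 0, and those of Fads2 and Fasn were the widest, so a difference in the oxLDL effect of these genes was neither shown nor bounded tightly.

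LPS was compared next, in PMφs without oxLDL. LPS changed most of the transcriptome, with 3946 genes lower (30.3% of 13023 tested) and 4093 higher (31.4%), so that the 3 of 10 genes called lower and the 1 called higher lie near or under the background. The LPS libraries have larger totals, and when all libraries were rescaled to equal totals the median gene moved by −0.48. The calls then became 2166 higher and 7224 lower of 12938 genes tested. On that scale 6 of the 10 genes were called lower, near the share of all genes. Fads1, Elovl5 and Scd2 were called lower under both scalings. With the block, Elovl6 was called lower as well, for 4 lower genes in all (34.1% of all genes lower, 34.6% higher). Its adjusted p was 0.0895 with the block and 0.317 without, and the blocked call was lost without number 2 or number 3. Leaving out a library or number gave 4 to 6 calls: without LPS number 1 Elovl6 was called (−0.70), without LPS number 2 Fasn was called higher (0.40), and with the block and without number 2 both Fasn (0.44) and Fads2 (0.55) were called higher.

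Fads1 had the largest difference. It was at 1572, 1424 and 1575 in control libraries and at 597, 501 and 444 in LPS libraries, which is 33.7% of the control mean (−1.58, SE 0.12, adjusted p = 3.09e-05; −2.06 with equal totals). Its neighbour Fads2 was at 123, 124 and 42 in control and 192, 91 and 58 in LPS libraries and was not called (0.22, SE 0.54, adjusted p = 0.761), with a sign that turned to −0.26 with equal totals. The desaturases of this locus thus stood at different ratios: Fads1 per kb over Fads2 per kb was 8.75, 7.86 and 25.7 in control and 2.13, 3.77 and 5.24 in LPS libraries, a comparison inside each library that no scaling moves.

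Elovl5 was at 1526, 1474 and 1523 in control and at 916, 702 and 747 in LPS libraries, 52.3% of the control mean with no overlap (−0.94, SE 0.11, adjusted p = 2.91e-04). Scd2 was at 2551, 1918 and 1721 in control and at 1675, 724 and 641 in LPS libraries (−1.14, SE 0.35, adjusted p = 0.0246). Number 1 of LPS lay close under the lowest control library. Scd1, in contrast, was at 650, 339 and 308 in control and 783, 299 and 331 in LPS libraries, with fully overlapping groups (0.06, 95% interval −0.90 to 1.02, adjusted p = 0.910; −0.42 with equal totals).

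Srebf1 was called higher with LPS on the deposited scale, at 1821, 1788 and 2073 against 1458, 1476 and 1338 in control (0.41, SE 0.095, adjusted p = 0.00758), and this direction turned with equal library totals (−0.07, adjusted p = 0.461). Fasn was at 1538, 829 and 1089 in LPS libraries, on either side of the control libraries at 959, 1035 and 954 (0.18, adjusted p = 0.480; −0.30 with equal totals). Acaca (−0.12, adjusted p = 0.539), Elovl6 (−0.37, adjusted p = 0.317) and Acsl3 (−0.09, adjusted p = 0.686) were not called without a block. With equal totals these 3 were called lower, at −0.61, −0.85 and −0.57.

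**Figure D4:**
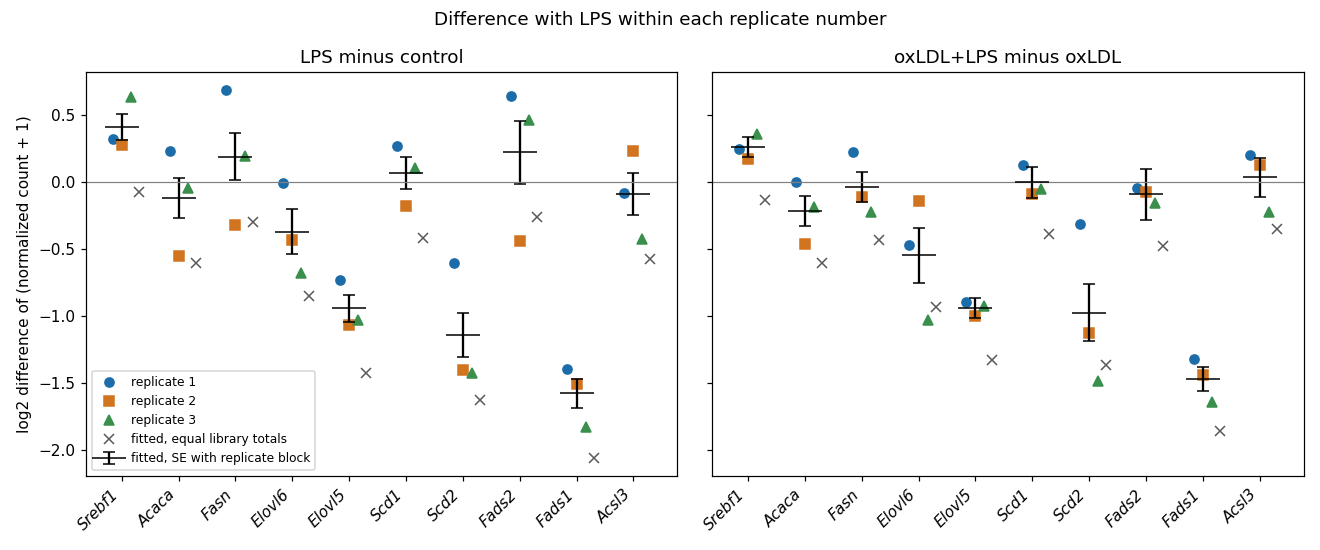
Log2 differences with LPS (y axis, on normalized count + 1) for the 10 genes, in PMφs without oxLDL (left) and with oxLDL (right). Symbols are differences inside each replicate number, bars with whiskers are the fitted difference and its SE with the replicate block, and crosses are the fitted difference after rescaling libraries to equal totals. Fads1, Elovl5, Scd2 and Elovl6 are below 0 in every number and under both scalings, whereas Srebf1 is above 0 on the deposited scale and below 0 with equal totals. Elovl6 is at −0.0072 in number 1 of the left panel.

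In PMφs with oxLDL, LPS gave the same 4 calls. Of 12900 genes tested, 3397 were lower (26.3%) and 3633 higher (28.2%), with 2031 higher and 6660 lower with equal totals, which moved the median gene by −0.39. Fads1 was at 1350, 1251 and 1274 in oxLDL and at 540, 460 and 407 in oxLDL+LPS libraries (−1.47, SE 0.12, adjusted p = 6.20e-05). Elovl5 was at 1440, 1326 and 1397 against 774, 662 and 734 (−0.94, SE 0.090, adjusted p = 1.47e-04). Neither gene's groups overlapped. Scd2 was at 1051, 930 and 760 against 843, 426 and 271, where the highest oxLDL+LPS library lay above the lowest oxLDL library (−0.98, SE 0.37, adjusted p = 0.0680).

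The call of Scd2 there rested on single libraries, since it was lost without oxLDL number 1 or 2 or without oxLDL+LPS number 2 or 3, where the log2 difference ranged from −0.96 to −0.59; with the block the adjusted p was 0.00840. Srebf1 was called higher, at 1564, 1456 and 1566 against 1320, 1298 and 1223 (0.26, SE 0.077, adjusted p = 0.0286), was no longer called without oxLDL number 3 (0.22), and turned to −0.13 with equal totals. With the block Elovl6 was also called lower (−0.55, SE 0.21, adjusted p = 0.0621; 0.163 without), as were 31.4% of all genes, with 32.0% higher. Fasn (−0.04), Scd1 (−0.01), Fads2 (−0.09), Acsl3 (0.03) and Acaca (−0.22) were not called on the deposited scale. With equal totals 5 of the 10 genes were called lower, near the share of all genes, 6660 of 12882. There Acaca (−0.61, adjusted p = 0.00322) and Elovl6 (−0.93, adjusted p = 0.0306) joined Fads1, Elovl5 and Scd2, and Acsl3 stood at −0.35. Leaving out a library or number gave 3 to 6 calls: Acaca (−0.28) and Elovl6 (−0.74) were called without oxLDL+LPS number 1 and Acaca (−0.32) with the block and without number 1, whereas Srebf1 (0.21) and Elovl6 (−0.31) lost their blocked call without number 3.

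The comparisons with LPS and those with oxLDL share libraries, so each gene's own values are set side by side. On the deposited scale Fasn, Scd1 and Fads2 stood at 48.1%, 45.9% and 50.2% of control with oxLDL and at 117%, 109% and 118% with LPS. With LPS they were not called, and equal library totals turned their log2 differences to −0.30, −0.42 and −0.26. With LPS they stood above control in numbers 1 and 3, and at 80.1%, 88.2% and 73.4% of it in number 2. Fads1 and Elovl5 stood at 84.8% and 92.0% with oxLDL and at 33.7% and 52.3% with LPS. Scd2 stood at 44.3% with oxLDL, at 49.1% with LPS and at 24.9% of control with both agents, with no overlap between control and any treated group.

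Ratios inside a library are free of the scaling, and 4 pairs were compared, chosen after the values were seen. Scd2 per kb over Scd1 per kb was 3.51, 5.07 and 5.0 in control, 3.63, 4.25 and 4.86 in oxLDL, 1.92, 2.17 and 1.73 in LPS and 2.67, 2.07 and 1.80 in oxLDL+LPS libraries. All 6 libraries with LPS thus lay below all 6 without it. The two-sided exact permutation test of 3 against 3 libraries cannot go below p = 0.1, which both LPS comparisons of this ratio reached (0.178 adjusted over the 16 tests of the 4 pairs); oxLDL against control gave p = 0.7. Fasn per kb over Acaca per kb was 1.95, 1.78 and 1.69 in control and 1.25, 1.31 and 0.957 in oxLDL libraries, without overlap (exact permutation p = 0.1). Elovl5 per kb over Elovl6 per kb was 13.9, 17.9 and 18.8 in control and 19.9, 26.0 and 25.8 in oxLDL libraries, again without overlap (exact permutation p = 0.1). Both of these comparisons had an adjusted p of 0.178. Between oxLDL+LPS and LPS libraries the ratio of Fasn to Acaca was again separate (exact permutation p = 0.1, adjusted 0.178), whereas that of Elovl5 to Elovl6 overlapped (exact permutation p = 0.2, adjusted 0.291). The Elovl5 to Elovl6 ratio was 8.36, 11.5 and 14.8 in LPS and 14.9, 14.4 and 27.9 in oxLDL+LPS libraries. It was thus higher with oxLDL inside each replicate number, as it was without LPS. The permutation test does not pair libraries by replicate number.

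**Figure D5:**
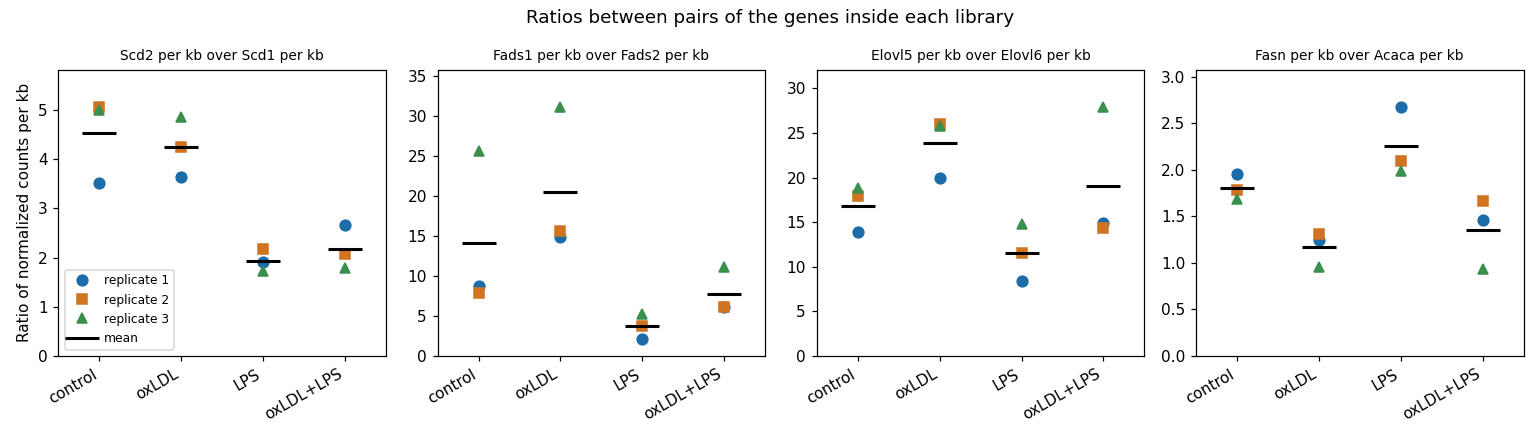
Ratios of normalized counts per kb (y axes, starting at 0) between pairs of the genes inside each of the 12 libraries, by group (x axes), with a symbol per replicate number and the mean as a bar. The ratio of Scd2 to Scd1 lies at 3.51 to 5.07 without LPS and at 1.73 to 2.67 with LPS, and the ratio of Fasn to Acaca lies lower in every oxLDL library than in every control library.

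The other genes of the pathway were taken from 8 lists with 76 genes, of which 66 were tested between oxLDL and control. With the block 21 were called lower and 3 higher, against 2.92% lower and 1.80% higher over all genes; without it 0 were. The SREBP targets of the cholesterol list were lower in 13 of 13 cases with the block, with a median of −0.75. They included squalene epoxidase Sqle (−1.11) and Idi1 (−1.31), an isomerase of isoprenoid synthesis. Among 14 genes of SREBP processing and LXR partners, Srebf2 (−0.60), which encodes the SREBP of the cholesterol genes, Insig1 (−1.03), which retains SREBPs in the endoplasmic reticulum, and Rnf145 (−0.26) were called lower.

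Genes that feed the pathway differed less in size. Of 6 genes of carbon and NADPH supply, ATP citrate lyase Acly (−0.25), the citrate carrier Slc25a1 (−0.21) and Aacs (−0.45) were called lower with the block. Mid1ip1 (−0.35), which activates acetyl-CoA carboxylase, and the elongation cycle reductase Tecr (−0.23) were the 2 of 10 called in their list. Of the 5 other desaturases and electron donors tested, Cyb5a, cytochrome b5, was called higher (0.47). Abcg1 (0.22), a cholesterol exporter, and Mylip (0.58), a ubiquitin ligase, were the LXR targets called higher, 2 of 6, while Abca1 was at 0.20 and not called. Of 7 glycerolipid assembly genes and 5 other acyl-CoA synthetases tested, none was called.

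Between oxLDL+LPS and LPS, 67 of these genes were tested, and the block called 20 lower and 5 higher, against 8.74% lower and 4.42% higher over all genes; without it 0 were called. The 5 higher calls lie near that share. The cholesterol genes were lower in 12 of 13 cases (median −0.89), all but Dhcr7, and Srebf2 (−0.68), Insig1 (−0.98) and Rnf145 (−0.39) were called lower again. The genes called higher were Me1 (0.83), Idh1 (0.52) and Acss2 (0.69), which supply NADPH or acetyl-CoA, Cyb5a (1.10) and Rxra (0.40). The carbon and NADPH supply list was split, as Slc25a1 and Aacs were called lower. Mid1ip1, Tecr and Acsl4 of other lists were also called lower. None of the 6 LXR targets was called.

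With LPS alone, 68 were tested, 33 called higher and 14 lower, of which 18 and 14 kept their call and direction with equal totals. Over all genes 31.4% were called higher and 30.3% lower, so the lower calls of these lists lie under the share of all genes, and the genes named next describe the lists only. Among the genes that kept their call, the acyl-CoA synthetases Acsl1 (2.48), Acsl5 (1.37) and Acsl4 (0.88) were higher, in contrast with Acsl3, as was Dgat2 (2.83), which completes triglyceride synthesis. Srebf2 (0.81), Insig1 (1.03) and Nr1h3 (0.92), the gene of LXRα, were higher too. The LXR target genes parted, with Abca1 higher (1.88) and Abcg1 lower (−1.33). Idh1 (−2.98), Dhcr7 (−2.89), the phosphatase Lpin1 (−4.78) and Mlxipl (−2.14), which encodes the carbohydrate-responsive factor ChREBP, were lower. In PMφs with oxLDL the 67 genes tested gave 27 higher and 12 lower, against 28.2% and 26.3% of all genes, and 18 and 12 of them kept their call with equal totals.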

How the data were processed

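Poly(A) RNA of 12 PMφ cultures was sequenced with paired 150-base reads from a directional kit. Per the labels and the study's methods, the authors trimmed reads with Trimmomatic 0.32, aligned them to GRCm38 with STAR 2.5.1b and counted exonic reads per GENCODE vM4 gene with featureCounts; whether counting used the strand is not given in the sources used here. The deposited values are a signal of whole numbers that behaves as counts divided by a factor per library and rounded, called normalized counts here. Of 43278 symbols, 18273 were at 0 in every library and 25 had become dates, which were not assigned to genes. Count models were not used on such scaled and rounded values, and their depth in reads was not recovered.

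Groups follow the labels. limma 3.58.1 (R 4.3.3; lmFit and eBayes with a variance trend) was fitted across all genes on log2(normalized count + 1), which understates changes of low genes. Genes entered with 10 or more normalized counts in 3 or more libraries of the fit, p-values were Benjamini-Hochberg adjusted over all genes tested, and genes were called at an adjusted p under 0.1. Only the 6 libraries compared entered a fit, and all 12 entered the interaction. Intervals are 95% intervals of the fit. The 10 genes were taken by name, and other genes were named where their list's comparison called them or to describe a list. The genes and lists were chosen with earlier results of these data known. Values of some listed genes are not reported here.

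The labels number the replicates, and per the methods each pool of cells was split over the groups. Over 11186 genes, which are not independent replicates, deviations from group means correlated between libraries of the same number, at 0.709, 0.691 and 0.731 for control and oxLDL, at 0.733, 0.664 and 0.691 for LPS and oxLDL+LPS, and between 0.305 and 0.665 for the other pairs of groups. The numbers therefore pair the libraries, and blocked values stand beside unblocked ones where a call or count changed. The labels do not say whether different numbers are separate animals or days, so p-values measure the spread between these libraries.

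The scripts were tested on simulated data. Gene positions and exon lengths came from GENCODE vM21, on the same build as the authors'. The alternatives were the replicate block, pseudocounts of 0.5 and 5, no filter, equal library totals, median ratios, all 12 libraries in the fit, and leaving out each library or replicate number. Figures were drawn with matplotlib 3.10.9.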

Additional observations from a re-analysis of the deposited data

How the results depend on the processing

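Between oxLDL and control and between oxLDL+LPS and LPS, all 10 genes kept their direction under each of the 17 alternatives. The count called was 0 without a block and 8 with the replicate block in both comparisons, as the replicate number pairs the libraries; over all genes the block called 601 and 1682 against 0. The block on all 12 libraries called 1 of the 10 genes, and 5 of all genes, between oxLDL and control, and 8 of the 10, and 1015 of all, between oxLDL+LPS and LPS. Leaving out libraries or replicate numbers gave 0 to 9 genes between oxLDL and control and 0 to 8 between oxLDL+LPS and LPS; over all genes the block called 139 to 1285 and 0 to 2945 without a number, and the fit without oxLDL+LPS replicate 2 called 91. With LPS, the block changed the call of Elovl6 alone and no other call of the 10 genes.

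Equal library totals turned the log2 difference between LPS and control to −0.074 for Srebf1, −0.30 for Fasn, −0.42 for Scd1 and −0.26 for Fads2, between oxLDL+LPS and oxLDL to −0.13 for Srebf1 and −0.35 for Acsl3, and the interaction to 0.025 for Scd1. By construction this rescaling lowers libraries with larger totals. Leaving out a library or number gave 4 to 6 calls between LPS and control and 3 to 6 between oxLDL+LPS and oxLDL, and ranges that crossed 0 for genes not called in the fits on all libraries compared. Between LPS and control they were −0.30 to 0.091 for Acaca, −0.065 to 0.44 for Fasn, −0.37 to 0.40 for Scd1, −0.29 to 0.61 for Fads2 and −0.25 to 0.080 for Acsl3. Between oxLDL+LPS and oxLDL they were −0.18 to 0.19 for Fasn, −0.29 to 0.25 for Scd1, −0.44 to 0.28 for Fads2 and −0.17 to 0.21 for Acsl3. For the interaction they were −0.26 to 0.0057 for Acaca, −0.44 to 0.011 for Fasn, −0.41 to 0.15 for Elovl6, −0.076 to 0.12 for Elovl5, −0.40 to 0.37 for Scd1, −0.27 to 0.60 for Scd2, −0.70 to 0.20 for Fads2 and −0.077 to 0.30 for Acsl3. The depth in reads is unknown, and the low values of Fads2, 25 to 192, carry the most rounding and counting error of the 10 genes.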
